A study of Mus musculus with 9 samples.

Results

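Atoh8 and Atoh1 are mouse genes of the atonal family of basic helix-loop-helix (bHLH) transcription factors. They were found by symbol among the 24505 genes of a nascent transcription table, where each had 1 row, and in the tables of H3K27me3 regions by the gene name the authors had assigned. Of 35798 regions with more H3K27me3 in RANKL cultures, 5 were assigned to Atoh8 and 3 to Atoh1. Of 13607 regions with more H3K27me3 in WENRC cultures, 7 were assigned to Atoh8 and 13 to Atoh1.

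The material was organoids, cultures of intestinal epithelium grown from mouse duodenum, under 3 conditions that the labels name RANKL, ENRI and WENRC. RANKL cultures were labelled as intestinal M cells, the antigen-sampling cells of the gut lining, ENRI cultures as enterocytes and WENRC cultures as stem cells. Global run-on sequencing (GRO-seq), which reads the RNA that engaged polymerases are making in isolated nuclei, gave 2 libraries per condition, and chromatin immunoprecipitation sequencing of H3K27me3 gave 2 libraries of RANKL, pooled by the authors, and 1 of WENRC. Each ENRI and each WENRC GRO-seq library came from mouse 1 or mouse 2, and RANKL libraries carry only a number. Strain, genotype, age, time in culture and the composition of the media are not given in the sources used here. The RANKL reads were combined from a resequencing run according to the table header, so the run and the RANKL condition cannot be told apart. The labels do not say that the RANKL libraries came from separate cultures, so p-values may measure a technical spread.

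As background, tissue-specific bHLH factors such as Atoh1 bind DNA as dimers with the widely expressed E proteins, at sites called E-boxes, and Id proteins block this by holding the E proteins. In the gut Atoh1 commits crypt progenitors to the secretory lineage of goblet, Paneth and enteroendocrine cells, and Notch signalling represses it through Hes1. Atoh8 is a more distant member of the family and responds to bone morphogenetic protein (BMP) signals in other tissues. H3K27me3 is the histone mark made by Polycomb repressive complex 2 (PRC2), found at silent developmental genes.

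The 250 bases before the start site of each gene are shown because a change of H3K27me3 began in exon 1 of Atoh8, while none was assigned within 5 kb of the start of Atoh1. The sequences come from RefSeq on GRCm38.p6, a later build than the mm9 of the region tables, and capitals mark E-boxes (CANNTG, the same on both strands). Atoh8 lies on the minus strand (chr6:72235578-72235827) and Atoh1 on the plus strand (chr6:64728875-64729124).
Atoh8: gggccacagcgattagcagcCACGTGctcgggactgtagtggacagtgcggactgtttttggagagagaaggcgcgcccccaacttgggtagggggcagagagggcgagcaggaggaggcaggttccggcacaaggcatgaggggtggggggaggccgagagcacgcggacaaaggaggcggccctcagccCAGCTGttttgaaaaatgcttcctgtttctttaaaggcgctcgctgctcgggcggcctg
Atoh1: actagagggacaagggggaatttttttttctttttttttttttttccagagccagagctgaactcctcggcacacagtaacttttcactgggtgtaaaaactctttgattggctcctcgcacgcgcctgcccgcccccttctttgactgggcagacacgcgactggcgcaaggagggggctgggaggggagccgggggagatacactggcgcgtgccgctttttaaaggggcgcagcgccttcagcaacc
The Atoh8 window held 2 E-boxes, CACGTG at -230 to -225 and CAGCTG at -59 to -54 (counted back from -1, the last base before the start), and the Atoh1 window held 0. Of all 32851 promoter windows of this length, 66.2% held at least 1. The Atoh8 window had 16 CpG dinucleotides and a GC content of 63.2%, and the Atoh1 window had 14 and 55.6%, against medians of 6 and 52.4% over all windows. On either strand, the PU-box GAGGAA, 1 form of ETS-type motif (in 23.2% of windows), and the RBPJ motif TGGGAA (21.6%) occurred in neither sequence. Other forms of ETS-type motif were not searched for, so their absence is not shown. The N-box CACNAG, the type of site that Hes factors bind (36.7%), occurred 1 time in Atoh8 and 0 times in Atoh1. These are letter matches within the windows and not measured binding.

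Atoh8 was transcribed most in RANKL cultures, less in WENRC and least in ENRI. The gene (NM_153778) spans 72156172 to 72185571 on chromosome 6 of mm9. Its values, normalized and on a log2 scale as deposited, were 7.04 in RANKL 1 and 6.71 in RANKL 2. They were 5.40 in WENRC 1 and 5.62 in WENRC 2, and 4.38 in ENRI 1 and 4.92 in ENRI 2. The 3 conditions did not overlap, and their means were 6.88 ± 0.23, 5.51 ± 0.16 and 4.65 ± 0.38 (SD, n = 2 each). Among 16563 tested genes, 20.3% had both RANKL libraries above all others, and 6.49% had the full order of conditions without overlap. Because the samples are bulk cultures, fewer cells that transcribe a gene and less transcription per cell cannot be told apart.

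**Figure D1:**
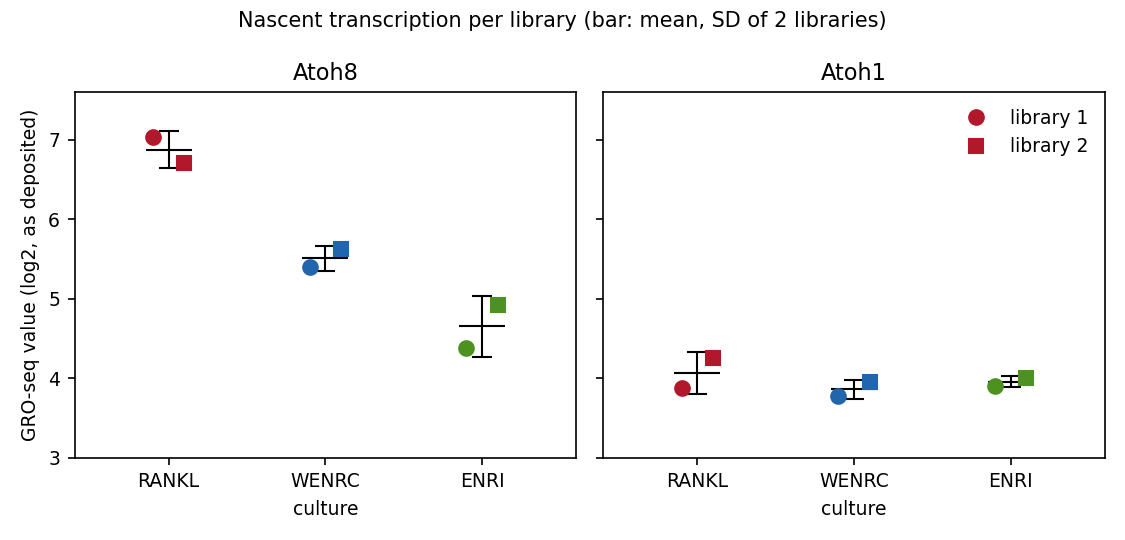
GRO-seq value (log2, as deposited) of Atoh8 and Atoh1 in each library of the 3 cultures, with points for libraries and bars for the mean and SD of 2 libraries. Atoh8 separates the cultures from 7.04 down to 4.38 without overlap, and the Atoh1 values of all cultures lie between 3.77 and 4.25.

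Atoh8 was higher in RANKL than in ENRI by 2.22 on the log2 scale (SE 0.26, limma adjusted p = 0.00493), or 4.67-fold with a 95% interval of 3.01 to 7.25. Of all tested genes, 10.4% were called higher and 10.5% lower in this comparison, and 201 had a larger rise than Atoh8. It was higher in RANKL than in WENRC by 1.37 (SE 0.26, limma adjusted p = 0.0254), or 2.58-fold with an interval of 1.66 to 4.01. Here 8.53% of genes were called higher and 3.62% lower, and 655 had a larger rise. Both calls held for 4.99% of tested genes. In the authors' deposited table the same changes were larger, 3.90 over ENRI and 2.15 over WENRC, with adjusted p of 1.81e-07 and 1.3e-05. The deposited values look like a regularized logarithm, which no header names, and such a scale may understate the changes of genes with few reads. On the log2 scale, both of the authors' changes lay above the 95% intervals given here. These intervals hold on the deposited scale only, so larger changes of Atoh8 are not excluded. The cause of the difference from the authors' changes was not tested.

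Both calls were lost without a single RANKL library, and that over WENRC also without a single WENRC library. In such fits 1 library stands for its culture, and its spread is assumed to be that of the other cultures. The change over WENRC had a limma adjusted p of 0.203 without RANKL 1, 0.161 without RANKL 2, 0.156 without WENRC 1 and 0.129 without WENRC 2. That over ENRI had 0.0668 without RANKL 1 or without RANKL 2. Its value stayed between 1.95 and 2.49 when any library was left out, and that over WENRC between 1.20 and 1.53.

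Atoh8 was 0.86 higher in WENRC than in ENRI (SE 0.26, 95% interval 0.22 to 1.49), which did not pass the test (limma adjusted p = 0.0783). Of all tested genes, 4.85% were called higher and 9.74% lower in WENRC in this comparison. The difference was 1.01 within mouse 1 and 0.70 within mouse 2. It passed with quantile normalization (limma adjusted p = 0.0430) and without ENRI 2 (0.0212), where ENRI 1 alone stands for its culture. With the replicate number (the mouse, for these cultures) as a block it did not (0.106), and the number of all genes called went from 2416 to 1506. The authors' deposited table gave it an adjusted p of 0.259.

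Atoh1 had similar values in all 3 cultures. The gene (NM_007500) spans 64679140 to 64681229 on chromosome 6 of mm9. Its values were 3.88 in RANKL 1, 4.25 in RANKL 2, 3.77 in WENRC 1, 3.95 in WENRC 2, 3.90 in ENRI 1 and 4.003 in ENRI 2. The ranges of the cultures overlapped, and between 30.2% and 33.3% of genes in the table had lower values in the same library. Per kb of gene length, between 48.2% and 54.2% of genes were lower. RANKL minus ENRI was 0.11 (95% interval -0.38 to 0.61, limma adjusted p = 0.725), RANKL minus WENRC 0.21 (-0.29 to 0.70, limma adjusted p = 0.556) and WENRC minus ENRI -0.09 (-0.59 to 0.40, limma adjusted p = 0.801). No neighbours in the order of the Atoh1 means differed beyond their spread, and without RANKL 2 the first change turned to -0.07. The authors' deposited table gave 0.47 and 0.85 for RANKL over ENRI and over WENRC, with adjusted p of 0.832 and 0.644. No change of Atoh1 passed the test with 2 libraries per culture. The intervals hold on the deposited scale only, which may understate the changes of genes with few reads. The authors' 0.85 over WENRC lay above the interval given here, so larger changes are not excluded.

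**Figure D2:**
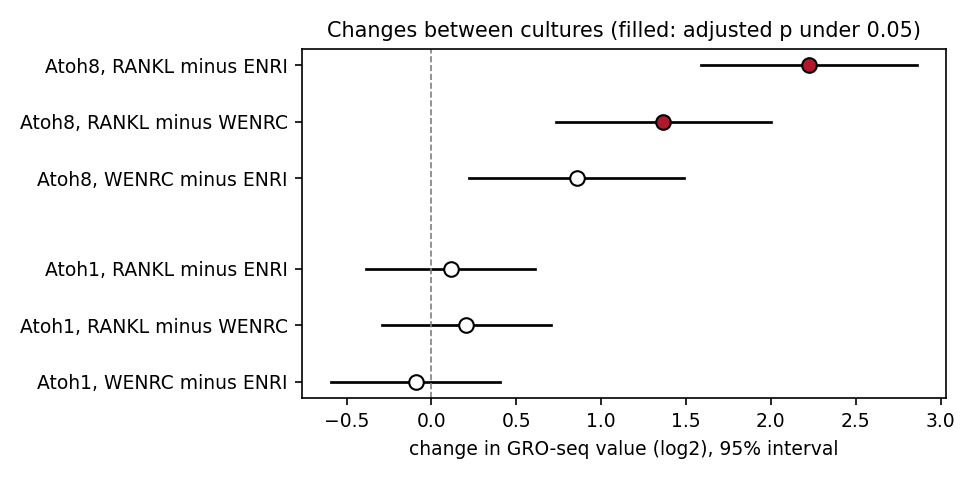
Change in GRO-seq value (log2) of each gene between cultures, with the 95% interval of the limma fit, filled where the adjusted p was under 0.05. The Atoh8 changes over ENRI (2.22) and over WENRC (1.37) are filled, and the intervals of all 3 Atoh1 changes include 0.

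Per length the order of the genes differed. Atoh8 is 29399 bp long and Atoh1 2089 bp. As linear normalized values per kb, Atoh1 stood at 8.09 ± 1.47 in RANKL, 7.42 ± 0.36 in ENRI and 6.97 ± 0.59 in WENRC (SD, n = 2 each). Atoh8 had 4.02 ± 0.64, 0.87 ± 0.23 and 1.55 ± 0.17 in the same order. The ratio of Atoh8 to Atoh1 per kb was highest in RANKL 1, at 0.635, and 0.391 in RANKL 2. The WENRC libraries had ratios of 0.219 and 0.227, and the ENRI libraries 0.0990 and 0.135. On this measure Atoh8 was below Atoh1 per kb in every library, and closest to it in RANKL. The measure raises the deposited log2 values back, which may distort low genes such as Atoh1. Where along each gene the reads lay is not known here.

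H3K27me3 at Atoh8 was lower in RANKL than in WENRC across the first part of the gene. Region folds and p-values are the authors', each region was called because the cultures differed there, and no replicate check exists. Tags are reads in the region, pooled in RANKL and scaled by the authors to the RANKL depth in WENRC. A region in exon 1 of 3 (chr6:72184364-72184864, centred 957 bp after the start) held 37.8 WENRC tags and 16 from RANKL. In intron 1 of 2, a region centred 2.78 kb after the start had 12 RANKL and 37.8 WENRC tags. In the same order, the next at 4.22 kb had 15 and 55.8, and that at 6.07 kb had 14 and 36. The third of these (chr6:72180737-72181955) had the smallest p of all Atoh8 regions, 1.59e-15, at a fold of 3.72. Together these 4 regions covered 3208 bp and held 57 RANKL tags (exact Poisson 95% interval 43.2 to 73.8, counting error only) against 167.4 scaled WENRC tags, or 17.8 against 52.2 tags per kb.

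The other Atoh8 regions pointed in both directions. A region in intron 2 (chr6:72165798-72166786, 19.3 kb after the start) had 38 RANKL and 9 WENRC tags, a fold of 4.22 toward RANKL. Upstream of the gene, centred from -31.4 to -24.5 kb, 4 regions were higher in RANKL with folds from 2.08 to 3.33. Another 2 upstream regions were higher in WENRC, with 18 RANKL against 40.5 WENRC tags at -30.5 kb and 4 against 20.7 at -34.0 kb. The last WENRC-higher region lay 47.0 kb after the start, outside the gene, with 13 and 34.2 tags. The 4 regions nearest the start were thus all higher in WENRC, while upstream and in intron 2 most were higher in RANKL. A RANKL-higher region overlapped 21.2% of tested genes (20.7% of all listed), and a WENRC-higher region 11.1% (9.82%).

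Atoh1 showed no listed change of H3K27me3 near its start site. The 3 RANKL-higher regions lay downstream, at 11.2, 12.8 and 14.9 kb after the start, with 24, 53 and 41 RANKL tags against 9, 18 and 7.2 WENRC tags. They covered 3127 bp, at 37.7 RANKL and 10.9 WENRC tags per kb, and the strongest had a fold of 5.69 (chr6:64693562-64694540). The 13 WENRC-higher regions were spread from -277 to 140 kb from the start, and the nearest was centred at -23.2 kb. The 13 held 84 RANKL and 303.3 WENRC tags over 7419 bp, with folds from 2.7 to 9.45. A region missing from these tables may hold the mark at a like level in both cultures.

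**Figure D3:**
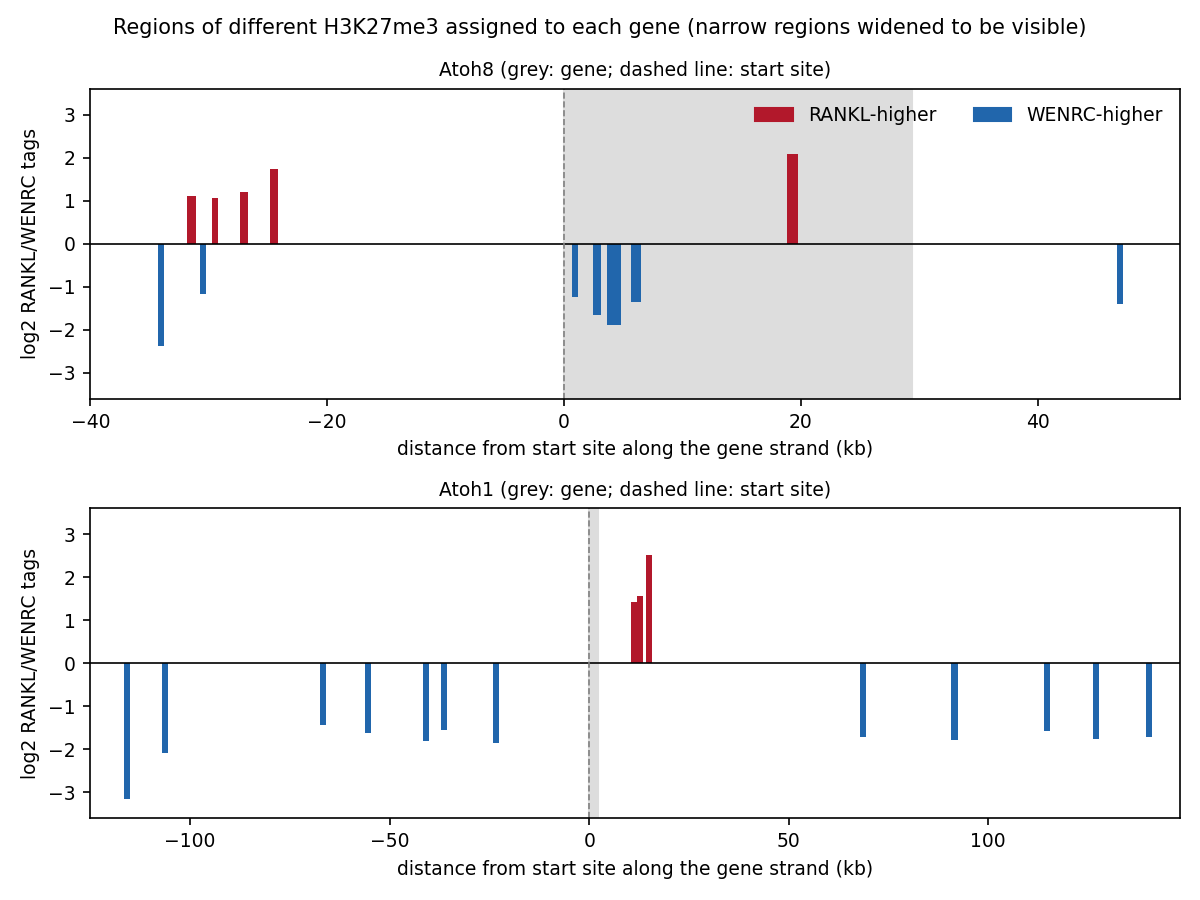
Regions of different H3K27me3 assigned to Atoh8 and Atoh1, by distance from the start site (kb) and log2 ratio of RANKL to scaled WENRC tags. The 4 WENRC-higher regions of exon 1 and intron 1 of Atoh8 sit just after the start, the nearest Atoh1 region is 11.2 kb away. Narrow regions are widened to be visible, and the Atoh1 region at -277 kb is outside the plot.

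Regions like those of Atoh8 were uncommon in the series. At least 1 WENRC-higher region within 5 kb of the start was listed for 5.44% of all genes (5.01% of tested genes), and at least 3, as for Atoh8, for 0.131% (32 genes). Atoh1 had 0. By other measures the Atoh8 count was less rare. At least 4 WENRC-higher regions overlapped 1.4% of all genes (342), and at least 7 by assigned name were listed for 1.07% (261). By assigned name, 13 or more, as for Atoh1, were listed for 0.2% of genes (49). The nearest other start site lay 313.5 kb from that of Atoh1, and its regions from -277 to -66.6 kb were annotated to introns of another transcript. The part of this spacing in the Atoh1 count was not tested. Of tested genes, 0.712% were called higher in RANKL than in both other cultures and had a WENRC-higher region within 5 kb. The 9 genes (0.0543%) with 3 or more were Atoh8, Ccdc33, Cspg4, Epb41l1, Esrrg, Kcnip1, Ppp1r16b, Rbm24 and Sost, a limit chosen after the Atoh8 values were seen.

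Counts of genes called over the whole table moved with single libraries. Over ENRI 3464 genes were called with all libraries, 111 without RANKL 1 and 64 without RANKL 2. Over WENRC these numbers were 2012, 0 and 0 (limma, 2702 and 2486 at an unadjusted p under 0.05 without RANKL 1 and RANKL 2), with 262 called without WENRC 1 and 216 without WENRC 2. Without ENRI 1 they rose to 6966 over ENRI and 5152 over WENRC, and without ENRI 2 they were 4433 and 5176. Over ENRI, 1915 were called without WENRC 1 and 1929 without WENRC 2. The counts in the gene lists below carry the same limit.

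Most related bHLH genes were transcribed too little to be tested, and most had RANKL-higher H3K27me3 regions near their start sites. Of 24 tissue-specific relatives in the table, among them the neurogenins, the achaete-scute factor Ascl2 and the Atoh1-like Atoh7, 8 were listed at 0 in every library and only 4 (Neurog3, Neurod1, Bhlha15 and Ascl2) were transcribed enough to be tested. Neurod1, an enteroendocrine factor, rose in RANKL over ENRI by 0.89 (limma adjusted p = 0.0321), and 0 of 4 were called over WENRC with limma (1 at an unadjusted p under 0.05). The median changes were 0.75 and 0.17. At their start sites 20 of the 24 had a RANKL-higher H3K27me3 region within 5 kb, where 19.1% of all genes (18.0% of tested genes) did. A WENRC-higher region was listed for 4 (Atoh7, Neurod6, Ascl2 and Hand2), where 5.44% of all genes had one. These 4 were among the 20, so each had regions in both directions, and no relative had a WENRC-higher region alone. Atoh8 had 0 RANKL-higher and 3 WENRC-higher regions in the same window, and its difference from the relatives was not tested.

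Among the dimer partners and their inhibitors, Id2 and Id3 had the largest changes. Id3 rose in RANKL over both cultures, by 1.48 over ENRI and 0.97 over WENRC (limma adjusted p = 0.00469 and 0.0197). Id2 rose by 2.14 over ENRI (limma adjusted p = 0.0124) and had 1.04 over WENRC (0.111). Id1 had 0.50 and 0.48 and did not pass, and Id4 was too low to be tested. The E protein gene Tcf3 rose by 0.60 over ENRI (limma adjusted p = 0.0303), while Tcf4 and Tcf12 had 0.55 and 0.46 and did not pass. In all, 3 of 6 tested genes were called higher over ENRI and 1 of 6 over WENRC, with 0 lower by limma (also 0 at an unadjusted p under 0.05), where 20.9% and 12.1% of all genes were called in either direction. The list medians were 0.57 and 0.36, against -0.0048 and -0.0073 over all tested genes.

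BMP pathway genes included several that rose in RANKL. Of 19 tested, 7 were higher in RANKL than in ENRI and 5 than in WENRC, where 10.4% and 8.53% of all genes were called higher, and 0 were lower by limma (1 and 2 at an unadjusted p under 0.05). The medians were 0.34 and 0.40. Id1, Id2 and Id3 are also in the list of dimer partners and inhibitors above, so the lists are not separate. Of them, Id2 and Id3 are in the count over ENRI and Id3 in that over WENRC. Smad6, an inhibitory Smad that BMP signalling induces, rose by 3.01 and 2.72 (limma adjusted p = 0.00145 and 0.00181), from values between 7.48 and 8.10 in the other cultures to 10.62 and 10.65 in RANKL. Of the ligands, Bmp6 rose by 1.86 and 1.57 (limma adjusted p = 0.00215 and 0.00355) and Bmp2 by 1.22 and 2.74 (0.0192 and 0.00316). Bmp7 rose over ENRI by 1.32 (limma adjusted p = 0.00370) and had 0.40 over WENRC (0.111). The 6 receptor and co-receptor genes tested did not pass. Bmpr1a, Bmpr2 and Acvr1 had changes from -0.16 to 0.29, and those of Bmpr1b, Acvrl1 and Eng were all negative, down to -0.57 over ENRI and -0.64 over WENRC for Eng. A WENRC-higher region lay within 5 kb of the start of 5 of 23 listed genes, namely Bmp2, Bmp6, Smad6, Smad9 and Id2, and a RANKL-higher region near 8, where 5.44% and 19.1% of all genes had one.

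Around Atoh1, the Notch genes moved in both directions. Hes1, the Notch-induced repressor, fell in RANKL by 1.21 against ENRI and by 1.31 against WENRC (limma adjusted p = 0.0108 and 0.0118). Its values were 7.06 and 7.30 in RANKL and 8.31 to 8.65 in the other cultures. Rbpj, the DNA-binding partner of Notch, rose by 1.72 and 1.23 (limma adjusted p = 0.0115 and 0.0382). The ligand Dll4 rose over ENRI by 0.99 (limma adjusted p = 0.0218) and Dll1 over WENRC by 1.17 (0.0327), and the receptor Notch1 fell by 0.99 against WENRC (0.0254). Of 17 tested genes 5 were higher and 1 lower against ENRI, and 2 higher and 2 lower against WENRC, where 20.9% and 12.1% of all genes were called in either direction. The medians were 0.25 and -0.19.

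Genes of the secretory programme that Atoh1 starts moved in both directions against ENRI. Of 14 tested, 3 were higher and 2 lower in RANKL against ENRI, and 0 higher and 2 lower against WENRC (limma, 1 and 4 at an unadjusted p under 0.05). Of all genes, 20.9% and 12.1% were called in either direction. The medians were 0.21 and -0.20. Xbp1, a factor of secretory capacity, fell by 1.35 and 0.86 (limma adjusted p = 0.00912 and 0.0421) and the goblet factor Klf4 fell by 1.82 against ENRI (0.0142). Foxa3 rose over ENRI by 1.01 (limma adjusted p = 0.0308), Spdef by 0.89 (0.0320) and Foxa2 by 0.80 (0.0361). Over WENRC, Spdef had 0.85 (limma adjusted p = 0.0508), Foxa2 0.10 and Foxa3 -0.19, and none passed. The vesicle gene Rab26 fell by 2.12 against WENRC (limma adjusted p = 0.0115). Gfi1, which acts downstream of Atoh1, had values between 3.13 and 3.47 in all libraries and was not tested.

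Of 12 genes for PRC2, the complex that makes H3K27me3, 6 were higher in RANKL over ENRI and 2 over WENRC, where 10.4% and 8.53% of all genes were called higher, and 0 were lower by limma (also 0 at an unadjusted p under 0.05). The list medians were 0.61 and 0.24. Jarid2, an accessory subunit, rose by 2.49 and 1.92 (limma adjusted p = 0.00311 and 0.00727), and the catalytic subunit Ezh1 by 0.79 and 0.82 (0.0194 and 0.0238). The catalytic subunit Ezh2 rose by 0.78 over ENRI (limma adjusted p = 0.0481) and had 0.06 over WENRC (0.892).

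**Figure D4:**
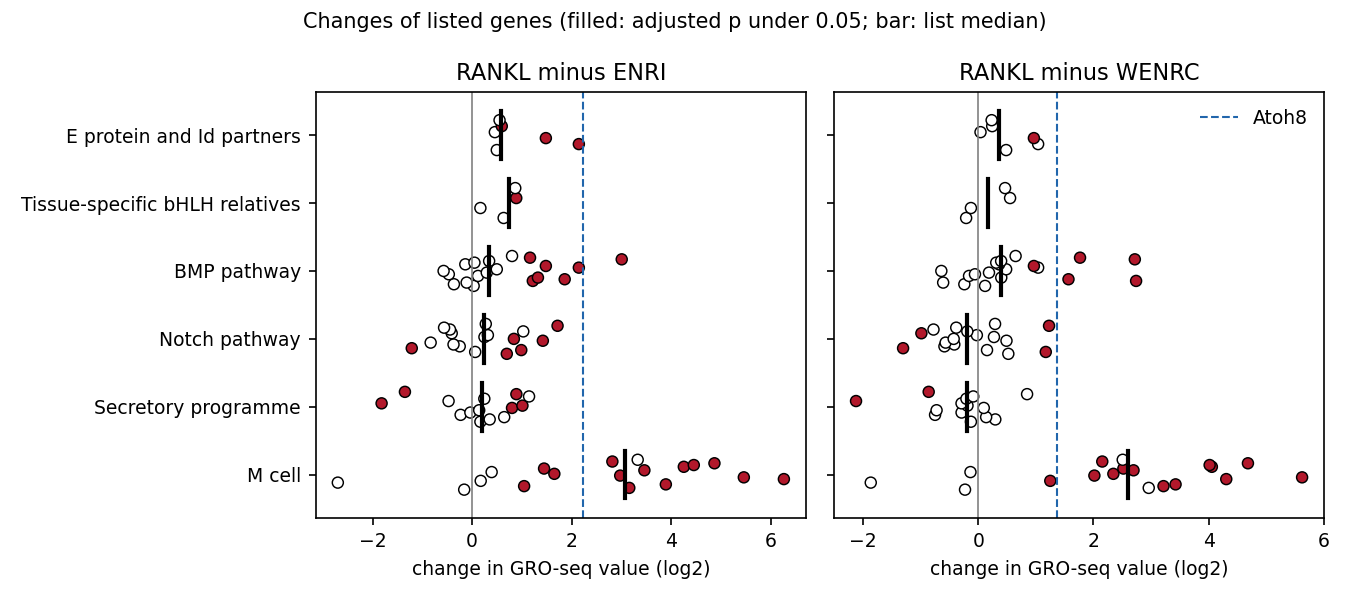
Change in GRO-seq value (log2) of the tested genes of each list in RANKL against ENRI (left) and against WENRC (right), filled where the limma adjusted p was under 0.05, with the list median as a bar and Atoh8 as a dashed line. Atoh8 lies above every tested partner gene and below the M cell median of 3.07 over ENRI and 2.61 over WENRC.

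The cultures carried the markers of their labels, with others beside them. Of 18 M cell genes 13 were called higher in RANKL over ENRI and 13 over WENRC. Among them were Tnfaip2 (4.87 and 4.68) and the Ets factor Spib (4.45 and 4.02). In each comparison 5 were not called and 0 were called lower by limma. Clu had -2.70 and -1.87, Aif1 -0.16 and -0.23 and Pglyrp1 0.39 and -0.14, none past the test. For the M cell counts and the counts below, the shares over all tested genes were 10.4% higher and 10.5% lower over ENRI. Over WENRC they were 8.53% and 3.62%. The summed linear values of 14 enterocyte markers ranged from 68590 to 120800 in ENRI, 34590 to 37720 in RANKL and 7613 to 13900 in WENRC. Those of 12 stem markers ranged from 11170 to 20330, 30850 to 32310 and 38390 to 39040 in the same order. In RANKL 5 stem markers were higher and 0 lower over ENRI, and 1 higher and 2 lower over WENRC. Tnfrsf19 rose over WENRC by 1.69 (limma adjusted p = 0.0129), while Lgr5 fell by 3.02 (0.00166) and Lrig1 by 0.69 (0.0388). Lgr5 had 0.10 over ENRI (limma adjusted p = 0.748). Of 8 Paneth markers, 3 were higher and 1 lower in RANKL over ENRI and likewise over WENRC. Their sum was 2993 to 3235 in RANKL, 808.4 to 1324 in ENRI and 950.1 to 1272 in WENRC. Defa17 (log2 values of 10.072 and 10.032) and Defa24 (10.342 and 10.045) made up most of the RANKL sum. The 9 goblet markers summed to 12610 to 13030 in RANKL, 10480 to 14970 in ENRI and 2033 to 3907 in WENRC. Fcgbp, at 13.225 and 13.236 in RANKL, made up most of the goblet sum there. The sums of 12 enteroendocrine markers were 1669 to 2233, 858.8 to 1262 and 775.1 to 1002. Chgb, at log2 values of 10.13 and 10.64 in RANKL, made up most of that sum there. Of 9 tested enteroendocrine markers, 1 was called higher over ENRI and 2 over WENRC, and Pax6, Cck, Sct and Tac1 had changes from -1.14 to -0.17 over ENRI, none past the test. Tuft markers, 8 in number, summed to 1157 to 1199, 674.2 to 690.1 and 687.1 to 775.1. Mesenchymal markers summed to 744.8 to 778.1 in RANKL, 341.2 to 391.2 in ENRI and 274.8 to 424.1 in WENRC. Most of the RANKL sum was Pdgfrb, at 9.21 and 9.26, which was higher by 1.94 and 2.45 (limma adjusted p = 0.0143 and 0.0102), while Acta2, the only other one tested, had -0.39 and -0.60. Immune markers summed to 433.2 to 505.8, 388.6 to 425.6 and 553.5 to 603.7. Of these lists only the tuft list had a marker at 0 in all libraries, Il25, and the part of these cells in the Atoh8 changes was not tested.

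By Euclidean distance between profiles over the 6 libraries, each centred on its own mean, the genes nearest to Atoh8 were Mmp7, Cacna1a, Wnt3, Nox1 and Pde1b, at distances from 0.349 to 0.478 and with Pearson's r from 0.982 to 0.994. Mmp7, a matrix metalloproteinase gene on the Paneth list, reached 7.56 and 7.51 in RANKL, against 6.11 and 6.45 in WENRC and 5.19 and 5.40 in ENRI. It was higher in RANKL by 2.24 over ENRI and 1.25 over WENRC (limma adjusted p = 0.00312 and 0.0162). The Wnt ligand gene Wnt3 was higher by 2.56 and 1.38 (limma adjusted p = 0.00569 and 0.0425) and the NADPH oxidase gene Nox1 by 2.03 and 1.48 (0.00347 and 0.00983). All 5 passed both tests, as Atoh8 did, which the choice by likeness favours. The genes nearest to Atoh1, led by Erf at a distance of 0.131, were flat, and none passed in any of the 3 comparisons.

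The neighbours of Atoh8 on the chromosome did not pass the test. On the side of its start site Sftpb (69.0 kb between start sites) had 0.60 over ENRI and -0.15 over WENRC in RANKL, and Usp39 (109.6 kb) 0.07 and -0.05. 0610030E20Rik (111.7 kb) had 0.16 and 0.28. On the other side St3gal5 (138 kb) had -0.31 and -0.70, and the noncoding genes 4933431G14Rik and 9130221F21Rik were too low to be tested. None of the neighbours overlapped Atoh8.

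The 5 neighbours of Atoh1 reported here did not pass the test either. After the gene, Smarcad1 (313.5 kb between start sites) and Hpgds (415.6 kb) had changes from -0.01 to 0.75 over the 3 comparisons. C130060K24Rik had 0.94 over ENRI and 0.98 over WENRC in RANKL (limma adjusted p = 0.0814 and 0.0982). Before the gene, A730020E08Rik and Ccser1 had changes from -0.43 to 0.40.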

How the data were processed

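The deposited GRO-seq values are log2. Per the file headers, reads were summed over RefSeq genes of mm9 with HOMER and passed to its differential expression step for all pairs of cultures. Bowtie2 (version 2.3.4.1), HOMER and DESeq2 are named in the submitters' processing notes. The values are normalized between libraries and look like a regularized logarithm, which no header names, and GRO-seq depth is unknown. The deposited table also holds the authors' p-values and log2 fold changes. The fold changes are signed second minus first culture and were turned. In the deposited region tables, RANKL tags are whole counts (listed at 0.5 where there were none) and WENRC tags a signal scaled by 0.9. Each deposited fold is the ratio of the tags of the cultures, at least 2 in every region.

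Genes with at least 2 libraries at a linear value of 10 or more (the log2 value raised back) were tested (16563) with limma (version 3.58.1, R 4.3.3), a variance trend and 3 group means in 1 fit, two-sided, with Benjamini-Hochberg adjustment and a threshold of 0.05. The fit was tested on simulated data. Members and lists were chosen with earlier results of these data known. Named genes were the up to 3 called genes with the smallest p per list and RANKL comparison, the 5 nearest profiles and the 3 nearest start sites on each side, of which 1 is not reported here. Other genes named were chosen after their values were seen. Mouse numbers pair ENRI and WENRC libraries by the labels, and their deviations correlated across genes (r = 0.41). Alternatives changed the libraries, block, scaling, filter, trend and weights.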

Additional observations from a re-analysis of the deposited data

How the results depend on the processing

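The Atoh8 changes in RANKL over ENRI and over WENRC kept their direction under all alternatives and passed under all that kept every compared library (limma adjusted p up to 0.0219 and 0.0433). Without single libraries (a lone library is assumed to vary like the other cultures) the first ranged from 1.95 to 2.49, the second from 1.20 to 1.53, and Atoh8 in WENRC over ENRI from 0.59 to 1.13. The last was 0.88 and passed with quantile normalization. Atoh1 in RANKL over ENRI reversed to -0.072 without RANKL replicate 2 and ranged up to 0.30. The cause was not tested. With the replicate block the Atoh8 values stayed at 2.22, 1.37 and 0.86 (limma adjusted p = 0.00977, 0.0421 and 0.106) and no call of Atoh8 or Atoh1 changed. For RANKL the numbers are only names (r of deviations -0.20 with ENRI and -0.32 with WENRC).

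The number of genes called depended on the fit more. With only the 4 libraries compared it was 1925 against 3464 in RANKL over ENRI, 5194 against 2012 over WENRC, and 0 (4074 at an unadjusted p under 0.05) against 2416 in WENRC over ENRI (124 with the block). Array weights gave 5122 over WENRC and 1580 in WENRC over ENRI. Without single libraries the 3 counts ranged from 64 to 6966, 0 to 5176 and 0 to 6650, and the BMP list count from 1 to 9 over ENRI and 0 to 10 over WENRC. At an authors' fold of at least 4, Atoh8 had 1 region in each direction, at 19.3 and -34.0 kb, so that none of the 4 in exon 1 and intron 1 passed. Atoh1 had 1 RANKL-higher and 3 WENRC-higher. The stricter filter left Atoh1 untested. GRO-seq depth is unknown, so its limit on low genes such as Atoh1 was not tested.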
